A study of Drosophila melanogaster with 24 samples.

Results

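The genes described here encode the Dpp signalling pathway of the fruit fly and a set of its targets. The list names 10 genes: the ligand dpp, the receptors tkv, sax and put, the Smad proteins Mad and Med, the nuclear repressor brk, and the targets salm, bi and Dad. They were picked by gene symbol, from the gene names given for the features of the array. The rule itself uses no measured value, but the genes were listed with earlier results of these data known. Of the 10 genes, 7 had at least 1 named feature, so that 7 of 10661 tested genes and unnamed features are members. Mad, brk and Dad had no feature that carried their name and are not analysed here, so the receptor-activated Smad, the repressor and the feedback inhibitor of the pathway are missing from the results.

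Dpp is a secreted protein of the BMP family. It binds a complex of type I and type II receptor kinases, the type I receptor phosphorylates Mad, and Mad enters the nucleus together with Med, where the pair represses brk and so releases targets such as salm and bi. In the wing disc, the larval epithelium that forms the adult wing, Dpp made along the anterior-posterior boundary patterns the wing pouch and is needed for growth and survival. Differences in the reception of Dpp between neighbouring cells have been studied as a part of cell competition, the process in which cells that express more of the growth regulator Myc displace their neighbours.

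Each of the 24 arrays compared RNA of tub>dmyc>Gal4 discs, labelled with one dye, with RNA of tub>cd2>Gal4 discs, labelled with the other. The dmyc discs hold the competing cells, the cd2 discs serve as the non-competing control, and both transgenes are written with a tub promoter and Gal4. The genotypes differ in the dmyc transgene itself, so an effect of the transgene and one of competition cannot be told apart in these ratios. Larvae of both genotypes were of the third instar, were reared alike and had been given a heat shock that produces clones. There were 6 arrays at each of 0, 12, 24 and 48 h, and dmyc RNA was in Cy5 on replicates 1 to 3 and in Cy3 on replicates 4 to 6. The labels call the material cells, but RNA was extracted from discs, so each value mixes the clones with the tissue around them. How many discs made up a sample was not found in the labels.

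All values below are log2 ratios of dmyc over cd2, so that 0 is no difference and 1 a doubling in dmyc discs. The direction rests on the order of the names in the array titles and is therefore likely rather than stated, and the base 2 is assumed. A ratio holds no level, so neither the abundance of a gene nor the identity of the tissue could be checked. The targeted gene dm is not analysed here. Arrays of opposite dye fell into 12 partner pairs that resembled each other across all genes (r of 0.519 to 0.898), and partners may share their RNA. Calls of the members, and counts of other genes called, are therefore also given with the pairs as a block in the fit, which lowered the number of features called at every time. The labels do not say that replicates came from separate animals, so the p-values measure the spread between these arrays, which may be technical. On arrays of the same dye orientation, replicate 3 at 0 h and replicate 3 at 12 h ran opposite to each other across genes (r = -0.747, the lowest such value), and the calls of members and of other named genes that were lost without replicates 3 and 6 of these times are given as such.

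The members' ratios were small, and most of them did not pass the test. With limma across all features and Benjamini-Hochberg adjustment, a call being an adjusted p under 0.05, none of the 7 members was called at 0 h, where 12.1% of all features were, and none had an unadjusted p under 0.05 there. Med was called at 12 h, lower in dmyc discs, as 1 of 7 members against 8.29% of all features. In whole discs, fewer cells that express a gene and less of its RNA per cell cannot be told apart. At 24 h Med and sax were called, 2 of 7 against 8.14%. At 48 h no member was called, against 6.29% of all features, although 2 members, sax and Med, had an unadjusted p under 0.05. With partner pairs as a block the members called were none at 0 h (4.83% of all features), Med at 12 h (1.34%), Med at 24 h (1.61%) and none at 48 h (1.91%). The median ratio over the members was -0.05 for 0 h, -0.01 for 12 h, -0.11 for 24 h and -0.05 for 48 h, beside medians of 0.00 for all features at each time.

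**Figure D1:**
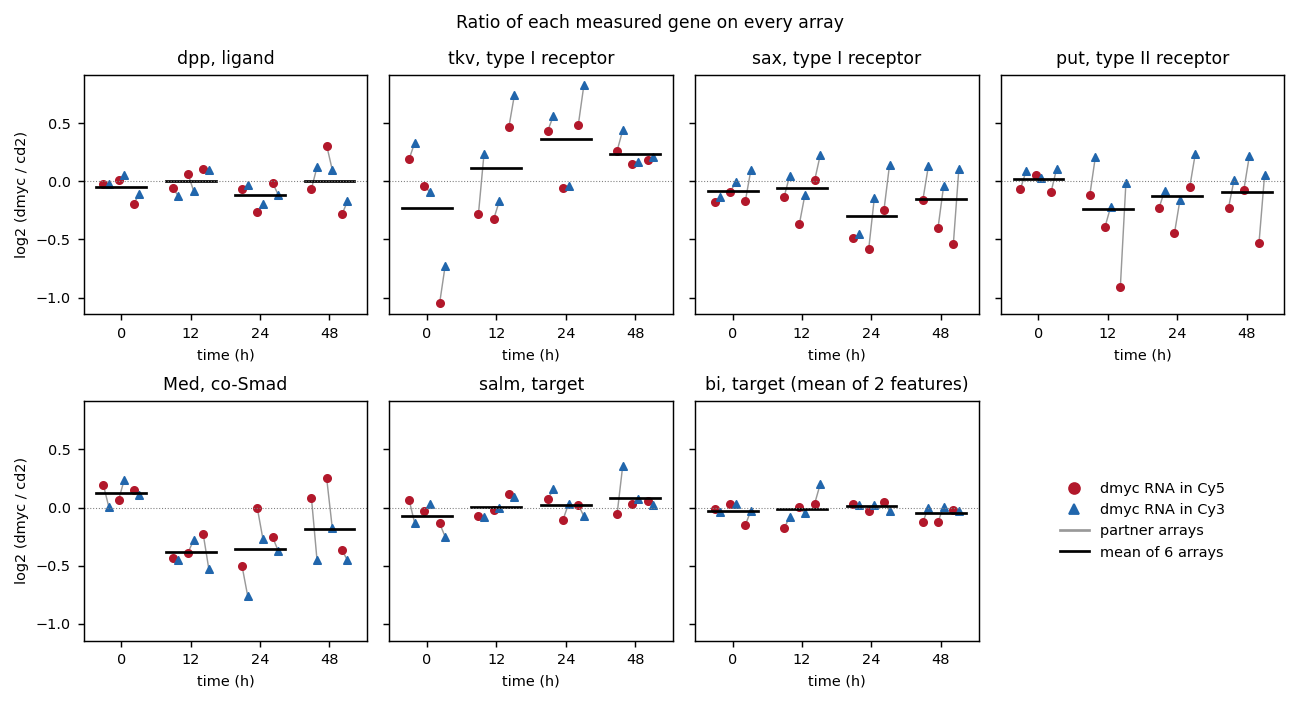
Log2 ratio of dmyc over cd2 (vertical axis) for the 7 measured members on each array, by time (horizontal axis, h). Red circles are arrays with dmyc RNA in Cy5, blue triangles arrays with dmyc RNA in Cy3, grey lines join partner arrays, and black bars are means of 6 arrays. Med lies above 0 on all 6 arrays at 0 h and below 0 on all 6 at 12 h and at 24 h, and tkv spans -1.05 to 0.33 at 0 h.

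The ligand was close to balance between the discs. dpp ranged over -0.19, -0.03 and 0.06 (lowest, median and highest of 6 arrays) at 0 h, over -0.12, 0.00 and 0.11 at 12 h, over -0.27, -0.09 and -0.01 at 24 h and over -0.28, 0.02 and 0.31 at 48 h. The 24 h arrays lay below 0 on 6 of 6, while those of the other times lay on both sides, and the ranges of the 4 times overlapped. The fitted ratio at 24 h was -0.11 ± 0.06 (SE) and was not called (adjusted p = 0.207). At 12 h it was 0.00 ± 0.06, with a 95% interval from -0.12 to 0.12. Its change against 0 h was 0.05 ± 0.08 at 12 h, -0.07 ± 0.08 at 24 h and 0.05 ± 0.08 at 48 h, none of them called.

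Among the receptors, tkv had the largest residual SD over all arrays, although at 48 h its 6 arrays spread less than those of sax and put. tkv, the type I receptor through which most Dpp signalling in the wing runs, had ratios of -1.05, -0.07 and 0.33 (lowest, median, highest) at 0 h, -0.32, 0.03 and 0.74 at 12 h, -0.06, 0.46 and 0.82 at 24 h, and 0.15, 0.20 and 0.44 at 48 h. It was above 0 on 6 of 6 arrays at 48 h and on 4 of 6 at 24 h, and the 24 h arrays overlapped those of 0 h. No single time was called for tkv, with fitted ratios of -0.23 ± 0.15 (adjusted p = 0.340), 0.11 ± 0.15, 0.37 ± 0.15 (adjusted p = 0.131) and 0.23 ± 0.15 at 0, 12, 24 and 48 h. The test of the change over time called tkv once, between 24 h and 0 h, with a rise of 0.60 ± 0.21 (1.51-fold, adjusted p = 0.0496, 95% interval 0.16 to 1.04). In that comparison 2 of 7 members were called, tkv and Med, against 20.3% of all features, and 1 of 7 with the block, against 8.63%.

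The tkv call lay at the edge of the threshold and was lost in 25 of the 36 fits that left out 1 array or 1 pair, with changes of 0.27 to 0.68 in those 25. At 0 h, replicates 3 and 6 read -1.05 and -0.73, whereas their counterparts 1 and 4 read 0.19 and 0.33 and replicates 2 and 5 read -0.04 and -0.09. At 12 h the arrays numbered 3 and 6 were the high ones, at 0.47 and 0.74. Without replicates 3 and 6 of 0 h the change at 24 h was 0.27 (adjusted p = 0.390), and with partner pairs as a block its adjusted p was 0.0898. With the partners 2 and 6 of 24 h left out, the ratio there was 0.58 and was called (adjusted p = 0.0436). With the partners 1 and 4 of 0 h left out, the changes at 12 h (0.59, adjusted p = 0.0470) and at 48 h (0.71, adjusted p = 0.0309) were called as well, against 0.34 and 0.47, both uncalled, with all arrays.

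The spread of tkv followed the pairs of arrays rather than the dyes. Its residual SD over the fit was 0.368, larger than that of 96.9% of all features, whose median was 0.121. Means of partner pairs ranged over 1.15, 0.856, 0.704 and 0.192 at 0, 12, 24 and 48 h, while the largest gap between partners was 0.321, 0.515, 0.339 and 0.173 at these times. The range over pairs was thus widest at 0 h and narrowest at 48 h, on 3 pairs each. The dye coefficient of tkv, the ratio with dmyc in Cy5 minus that with dmyc in Cy3, was -0.17 and was not called (adjusted p = 0.511).

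sax, a type I receptor that responds mainly to the related ligand Gbb, was lower in dmyc discs at 24 h. Its arrays there read -0.58, -0.35 and 0.14 (lowest, median, highest), and 5 of 6 were below 0. The fitted ratio was -0.30 ± 0.07, which is 1.23-fold lower (adjusted p = 0.0104). The call was lost with partner pairs as a block (adjusted p = 0.0636), without replicate 5 at 24 h (-0.24, adjusted p = 0.0616), without the partners 1 and 5 (-0.21, adjusted p = 0.141) and without the partners 2 and 6 (-0.26, adjusted p = 0.0535).

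At the other times sax gave -0.18, -0.11 and 0.10 at 0 h, -0.37, -0.05 and 0.22 at 12 h, and -0.54, -0.10 and 0.13 at 48 h. These ranges all overlapped that of 24 h, and the change of the ratio between 24 h and 0 h, -0.21 ± 0.10, was not called (adjusted p = 0.115). It was called without replicate 4 at 24 h (-0.28, adjusted p = 0.0416) and without its pair with replicate 3 (-0.34, adjusted p = 0.0251).

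put, the type II receptor that sets the type I receptors to work, had its lowest ratios at 12 h. The 6 arrays there read -0.91, -0.17 and 0.21 (lowest, median, highest), against -0.10, 0.04 and 0.10 at 0 h. The lowest 12 h value came from replicate 3, whose partner, replicate 6, read close to 0, and the groups overlapped. The fitted ratio of -0.24 ± 0.08 at 12 h was not called (adjusted p = 0.0679), nor was its change against 0 h of -0.26 ± 0.12 (adjusted p = 0.103). Both were called when the partners 1 and 4 of 12 h were left out, at -0.39 (adjusted p = 0.0169) and -0.40 (adjusted p = 0.0150), and also without replicate 4 alone (adjusted p = 0.0340 and 0.0449). Without replicates 3 and 6 of 0 h and 12 h, the ratio was -0.13 (adjusted p = 0.471) and the change -0.16 (adjusted p = 0.497). At 24 h put gave -0.12 ± 0.08 and at 48 h -0.09 ± 0.08, neither called.

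sax and put shared a dependence on the dye. With dmyc RNA in Cy5, sax was below 0 on 11 of 12 arrays (-0.58, -0.21 and 0.01 as lowest, median and highest), and with dmyc RNA in Cy3 on 6 of 12 (-0.46, 0.02 and 0.22). For put the counts below 0 were 11 of 12 with dmyc in Cy5 and 4 of 12 with dmyc in Cy3. The dye coefficient was -0.27 for sax (adjusted p = 0.0143) and -0.30 for put (adjusted p = 0.0230), so that these 2 of 7 members were called for dye, against 11.0% of all features. Each time holds 3 arrays of each orientation, so this difference cancels in the fitted ratios, but it adds to the range of the raw values above. Across the 24 arrays the ratios of sax and put correlated at r = 0.47, a description that includes this shared dye difference.

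Med, the co-Smad that joins activated Mad in the nucleus, was the member whose ratio changed most clearly with time. Its arrays read 0.001, 0.13 and 0.24 (lowest, median, highest) at 0 h, -0.53, -0.41 and -0.23 at 12 h, -0.76, -0.32 and -0.006 at 24 h, and -0.45, -0.27 and 0.25 at 48 h. All 6 arrays were above 0 at 0 h and all 6 below 0 at 12 h and at 24 h, so the groups of 12 h and of 24 h did not overlap with that of 0 h, whereas at 48 h 4 of 6 were below 0. The share of all features whose groups separate in this way is not given here. By the fit, 23.8% of all features changed between 12 h and 0 h and 20.3% between 24 h and 0 h.

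Med was lower in dmyc discs at 12 h by the fit, at -0.39 ± 0.07 (1.31-fold lower, adjusted p = 0.00469, 0.0379 with partner pairs as a block). It was also lower at 24 h, at -0.36 ± 0.07 (1.28-fold lower, adjusted p = 0.00662, 0.0458 with the block). The ratios of 0.13 ± 0.07 at 0 h (adjusted p = 0.289) and -0.18 ± 0.07 at 48 h (adjusted p = 0.152) were not called. The 24 h call depended on the pair of replicates 1 and 5, without which the ratio was -0.23 (adjusted p = 0.131).

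Between 12 h and 0 h the ratio of Med fell by 0.51 ± 0.11 (1.43-fold, adjusted p = 0.00170, 0.0129 with the block), and between 24 h and 0 h by 0.49 ± 0.11 (1.40-fold, adjusted p = 0.00342, 0.0228 with the block). The change at 48 h, -0.31 ± 0.11, was not called (adjusted p = 0.0737), but was called with the partners 2 and 5 of 48 h left out (-0.42, adjusted p = 0.0300), with replicate 2 of them left out (-0.39, adjusted p = 0.0335) and with the partners 1 and 5 of 24 h left out (adjusted p = 0.0451). Med was the 1 of 7 members called between 12 h and 0 h, against 23.8% of all features, or 12.4% with the block. It was also the 1 of 7 called for any change over time (adjusted p = 0.00483, 0.0402 with the block), against 19.7%, or 6.97% with the block. No member was called between 48 h and 0 h, against 6.33% of all features, or 0.131% with the block, although tkv, Med and salm had an unadjusted p under 0.05 there.

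The fall of Med stayed called without the arrays that ran opposite to each other, in a fit that treated arrays as independent. With replicates 3 and 6 of 0 h and of 12 h left out together, an alternative added after the data were seen, the change at 12 h was -0.51 (adjusted p = 0.0421) and that at 24 h -0.49 (adjusted p = 0.0241), although the test for any change over time was then not passed. When partners were averaged into 1 value, which leaves 3 values a time, the sizes stayed as they were. The adjusted p was then 0.0529 for the change at 12 h and 0.0931 for that at 24 h, neither called. For the ratios of Med themselves it was 0.173 at 12 h and 0.209 at 24 h. Pair means of Med ran from -0.44 to -0.33 at 12 h, from -0.63 to -0.14 at 24 h and from 0.10 to 0.15 at 0 h.

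**Figure D2:**
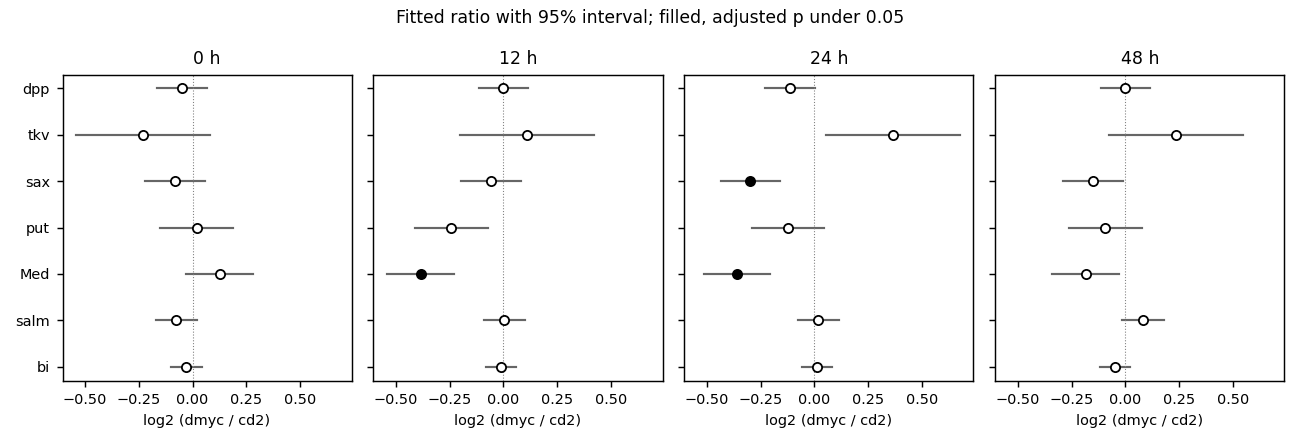
Fitted log2 ratio of dmyc over cd2 (horizontal axis) of each member at 0, 12, 24 and 48 h, with its 95% interval; filled points have an adjusted p under 0.05. Med is filled at 12 h and 24 h and sax at 24 h. tkv has the widest intervals and bi, the mean of 2 features, the narrowest.

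Some markers of other tissues moved over the same times as Med. The 5 measured of 8 tracheal markers had array means of -0.49 to -0.06 at 0 h, 0.12 to 0.41 at 12 h, 0.00 to 0.31 at 24 h and -0.12 to 0.24 at 48 h. At 0 h 3 of the 5 were lower, against 8.24% of all features, at 12 h 2 were higher, against 5.32%, and between 12 h and 0 h 4 rose, against 15.1%, where Med fell. The 4 that rose were verm, serp, sinu and kkv, whereas btl was not called there (0.06 ± 0.05, adjusted p = 0.477). With partner pairs as a block the counts at 0 h, at 12 h and between them were 1, 1 and 2. The shares of all features called in either direction were 4.83%, 1.34% and 12.4%. Without replicates 3 and 6 of 0 h and 12 h they were also 1, 1 and 2, where 277, 229 and 478 features were called in all. The number of features tested without these replicates is not given here, so no share stands beside these counts.

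The 5 measured of 8 hemocyte markers had array means of -0.12 to 0.14 at 0 h and -0.28 to -0.08 at 12 h. At 12 h 1 of the 5 was lower, against 2.97% of all features, and between 12 h and 0 h 2 fell, NimC1 by 0.19 and eater by 0.27, against 8.75%, in the direction of Med. None of the 5 was called with the block or without replicates 3 and 6. The 3 measured of 8 fat body markers spread widely, from -1.22 to 1.16 at 0 h, from -0.47 to 1.16 at 12 h, from -0.74 to 1.68 at 24 h and from 0.49 to 2.17 at 48 h. At 48 h 1 of the 3 was higher, against 3.10% of all features, and was not called with the block. Of the 7 measured of 9 markers of the wing disc epithelium, 1 rose and 1 fell between 12 h and 0 h, against 15.1% and 8.75% of all features. Both were also called with the block, against 12.4%. nub, a marker of the wing pouch, changed by 0.54 ± 0.06 and vg, also among the further targets, by -0.54 ± 0.11 (adjusted p = 2.13e-05 and 0.00186). The 4 measured of 7 myoblast markers had none called at any time. Between 12 h and 0 h 1 of them rose, against 15.1% of all features, and it was not called with the block. Without replicates 3 and 6, 1 was lower at 0 h, where 277 features were called in all, again without a share. None of the 2 measured of 4 nerve markers was called in any comparison. The part of these tissues in the ratios of Med, sax and tkv was not tested, and a ratio does not show whether a marker is at 0 in both discs.

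The measured targets among the members, salm and bi, showed no called ratio at any time. salm, which encodes a zinc finger protein of the central wing, ranged over -0.25, -0.08 and 0.07 at 0 h, -0.08, -0.01 and 0.12 at 12 h, -0.10, 0.03 and 0.16 at 24 h, and -0.05, 0.04 and 0.36 at 48 h. The 4 ranges overlapped. The fitted ratios were -0.08 ± 0.05, 0.00 ± 0.05, 0.02 ± 0.05 and 0.08 ± 0.05 at 0, 12, 24 and 48 h. Its change between 48 h and 0 h, 0.16 ± 0.07 with a 95% interval from 0.02 to 0.29, was not called (adjusted p = 0.131). The highest salm value, 0.36 in replicate 4 at 48 h, stood apart from the other 5 arrays of that time.

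bi, the T-box gene also known as omb, had the lowest residual SD of the members, although at 12 h its 6 arrays spread more widely than those of dpp, Med and salm. As the mean of 2 features it ranged over -0.15, -0.02 and 0.03 at 0 h, -0.18, -0.02 and 0.20 at 12 h, -0.03, 0.02 and 0.05 at 24 h and -0.13, -0.03 and 0.01 at 48 h. The fitted ratios lay between -0.05 and 0.01 with SE of 0.03, and the 95% interval at 24 h ran from -0.06 to 0.08. This residual SD of 0.083 was larger than that of only 16% of all features.

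The 2 features of bi were not alike. With the features kept apart, the first read -0.15 ± 0.07 at 0 h and 0.06 ± 0.07 at 24 h, and the second 0.09 ± 0.04 and -0.02 ± 0.04, none of them called. The second feature depended on the dye: it was below 0 on 11 of 12 arrays with dmyc RNA in Cy5, and above 0 on 9 of 10 with dmyc RNA in Cy3. Its dye coefficient was -0.23 (adjusted p = 0.00127), whereas that of the first feature was 0.14 (adjusted p = 0.215). The mean of both therefore joins dye coefficients of opposite sign, and on the 2 arrays where the second feature had no value, replicate 6 at 24 h and replicate 4 at 48 h, it rests on the first alone.

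**Figure D3:**
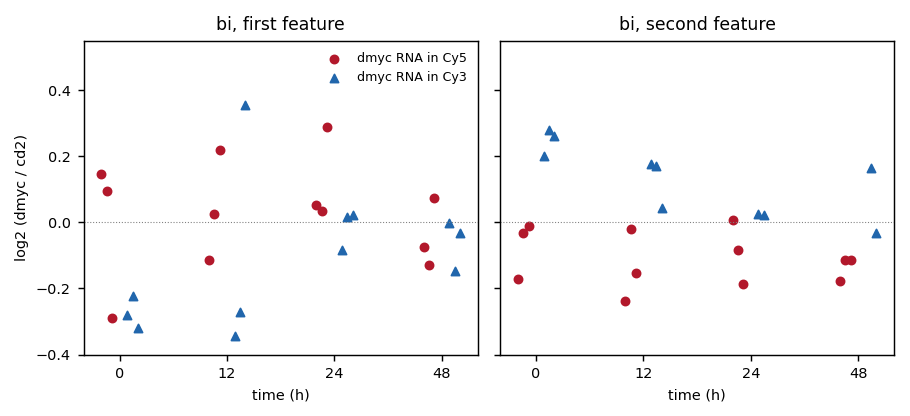
Log2 ratio of dmyc over cd2 (vertical axis) of the 2 features of bi on each array, by time (horizontal axis, h); red circles have dmyc RNA in Cy5 and blue triangles in Cy3. In the second feature the circles lie below 0 on 11 of 12 arrays and the triangles above 0 on 9 of 10.

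Among themselves the members did not move as a block. Over the 24 arrays, which share dye orientations, partners and times, the largest correlations were those of tkv with salm (r = 0.55), tkv with bi (r = 0.50), sax with put (r = 0.47) and tkv with Med (r = -0.48). The ligand dpp correlated with Med at r = 0.13 and with salm at r = 0.43. These values are descriptions, and no test was made of them.

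The named genes whose ratio followed that of Med most closely over the 24 arrays were nej, with a Pearson r of 0.89, Nup358 with 0.872 and Cdk2 with 0.872. Over the means of the 12 partner pairs the r was 0.914 for nej, 0.899 for Nup358 and 0.936 for Cdk2. nej encodes the acetyltransferase CBP, a coactivator, Nup358 a nuclear pore protein and Cdk2 a kinase of the cell cycle. The fitted ratios of Cdk2 were 0.16, -0.25, -0.28 and -0.07 at 0, 12, 24 and 48 h, and those of Nup358 0.23, -0.17, -0.32 and -0.003.

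**Figure D4:**
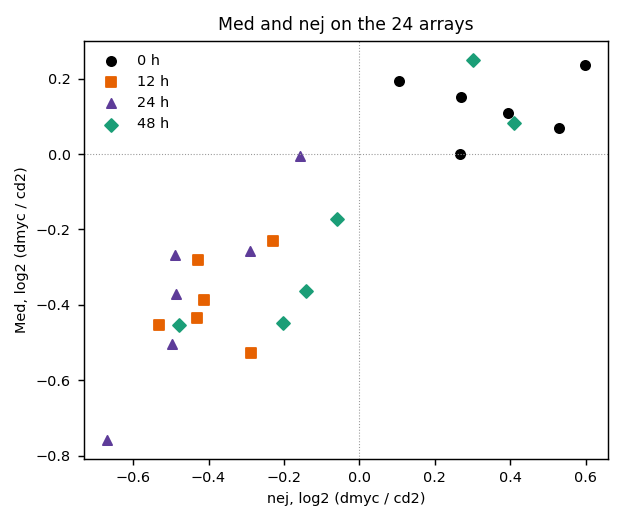
Log2 ratio of dmyc over cd2 of Med (vertical axis) against that of nej (horizontal axis) on the 24 arrays, by time. The 6 arrays of 0 h lie at positive nej and Med values, those of 12 h and 24 h at negative values of both, and those of 48 h on both sides (r = 0.89 over all 24).

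nej was itself on the list of 44 further genes of Dpp and TGF-beta signalling, of which 34 were measured, and it had the lowest adjusted p of that list for the change between 12 h and 0 h. At 0 h it was higher in dmyc discs, at 0.36 ± 0.08 (adjusted p = 0.00579, 0.0382 with partner pairs as a block, 0.0514 without replicates 3 and 6 of 0 h and 12 h), with 6 of 6 arrays above 0. It was lower at 12 h, at -0.39 ± 0.08 (adjusted p = 0.00705, 0.0509 with the block), and at 24 h, at -0.43 ± 0.08 (adjusted p = 0.00352, 0.0289 with the block), with 6 of 6 arrays below 0 at each. The change between 12 h and 0 h was -0.75 ± 0.11 (adjusted p = 0.000162, 0.00221 with the block, 0.00813 without replicates 3 and 6). It was larger in size than that of Med, and the difference between both genes was not tested.

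Of the 34 further genes, 5 were called at 0 h, 2 higher and 3 lower, where 3.84% of all features were higher and 8.24% lower. At 12 h 2 were higher and 2 lower (5.32% and 2.97% of all features), at 24 h 2 higher and 1 lower (3.75% and 4.39%), and at 48 h 1 higher and 1 lower (3.10% and 3.19%). With pairs as a block, 1 of them was called at each of the 4 times, beside 4.83%, 1.34%, 1.61% and 1.91% of all features. Between 12 h and 0 h 11 rose and 5 fell, where 15.1% of all features rose and 8.75% fell. With the block 6 of these were called, beside 12.4% of all features. Between 24 h and 0 h 4 rose and 5 fell (12.2% and 8.08% of all features), and between 48 h and 0 h 1 rose and 1 fell (3.78% and 2.55%). With the block 4 and 0 were called in these 2 comparisons, beside 8.63% and 0.131% of all features. The comparisons with 0 h share the 0 h arrays. Without replicates 3 and 6 of 0 h and 12 h, none of the 34 was called at 0 h, 1 was higher and 1 lower at 12 h, 1 rose and 2 fell between 12 h and 0 h, 2 rose and 2 fell between 24 h and 0 h, and none was called between 48 h and 0 h. All features called there numbered 277, 229, 478, 909 and 39 in these 5 comparisons. With all arrays they numbered 1287, 884, 2539, 2163 and 675. Fewer features were tested without these replicates, since every remaining array of 0 h and 12 h had to hold a value. The number tested is not given here, so the counts without these replicates have no share beside them.

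Among other ligands, gbb, the partner of dpp in the wing, was lower at 0 h (-0.24 ± 0.07, adjusted p = 0.0401, 0.137 with the block). Its ratio rose by 0.47 ± 0.11 between 12 h and 0 h (adjusted p = 0.00287) and by 0.41 ± 0.11 between 24 h and 0 h (adjusted p = 0.00964). gbb thus moved over these times in the direction opposite to Med, and both calls of its change were kept with the block (adjusted p = 0.0178 and 0.0453). With replicates 3 and 6 of 0 h and 12 h left out, the ratio of gbb at 0 h was -0.17 (adjusted p = 0.258) and the change at 12 h 0.28 (adjusted p = 0.126), neither called, while the change at 24 h of 0.34 was (adjusted p = 0.0331).

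Among 11 measured extracellular modulators, which shape the spread of the ligand, vkg, a type IV collagen chain, was higher at 12 h (0.30 ± 0.07, adjusted p = 0.0111, 0.0391 with the block). The ratio of vkg rose by 0.44 ± 0.10 between 12 h and 0 h (adjusted p = 0.00250, 0.0073 with the block, 0.0302 without replicates 3 and 6). magu, which encodes a secreted protein that acts on the Dpp gradient, was higher at 12 h (0.18 ± 0.06, adjusted p = 0.0465) and lost its call with the block (adjusted p = 0.202) and without replicates 3 and 6 (0.12, adjusted p = 0.371). cv, a secreted protein of crossvein formation, was lower at 0 h (-0.12 ± 0.03, adjusted p = 0.0282) and higher at 24 h (0.12 ± 0.03, adjusted p = 0.0326), and neither call was kept with the block (adjusted p = 0.138 and 0.159); the first was also lost without replicates 3 and 6 (adjusted p = 0.129). Its change between 24 h and 0 h, 0.24 ± 0.05, was kept (adjusted p = 0.00223, 0.0215 with the block).

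Among 9 measured further targets, vg, the selector gene of the wing, read 0.08 to 0.51 at 0 h, -0.40 to -0.06 at 12 h and -0.31 to -0.11 at 24 h. All 6 arrays were above 0 at 0 h and all 6 below 0 at 12 h and at 24 h, the same order as for Med, and the share of all features with this order is not given here. It was called at 0 h (0.29 ± 0.08, adjusted p = 0.0193, 0.0824 with the block), and its fall between 12 h and 0 h was 0.54 ± 0.11 (adjusted p = 0.00186, 0.0124 with the block). This change was -0.53 without replicates 3 and 6 and was called (adjusted p = 0.0433), but the ratio at 0 h was not (0.28, adjusted p = 0.164). salr, the neighbour and paralog of salm, was lower at 12 h by a small amount (-0.12 ± 0.03, adjusted p = 0.0170, 0.154 with the block, 0.151 without replicates 3 and 6), where salm itself read 0.00 ± 0.05. The change of salr between 12 h and 0 h was -0.20 ± 0.04 (adjusted p = 0.00217, 0.0384 with the block, 0.0795 without replicates 3 and 6). The labels do not describe the spotted probes, and whether salm and salr RNA bind each other's feature was not tested.

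kni, a target in the primordium of a wing vein, was lower at 0 h (-0.19 ± 0.06, adjusted p = 0.0445, 0.113 with the block, 0.274 without replicates 3 and 6). Its paralog knrl was higher at 24 h (0.12 ± 0.04, adjusted p = 0.0469, 0.212 with the block) and at 48 h (0.15 ± 0.04, adjusted p = 0.0238, 0.155 with the block). Doc1, a T-box gene expressed at the edge of the Dpp domain, was lower at 48 h (-0.24 ± 0.05, adjusted p = 0.0101, 0.0422 with the block), with 6 of 6 arrays below 0.

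**Figure D5:**
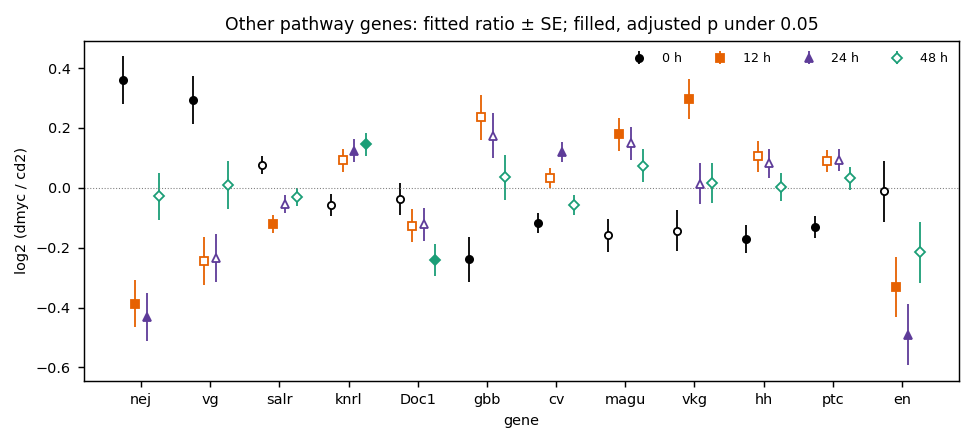
Fitted log2 ratio of dmyc over cd2 (vertical axis, ± SE) of called genes outside the member list at 0, 12, 24 and 48 h; filled symbols have an adjusted p under 0.05. nej and vg lie above 0 at 0 h and below it at 12 h and 24 h, whereas gbb, magu, hh and ptc lie below 0 at 0 h and above it at 12 h and 24 h.

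Hedgehog signalling, which turns on dpp along the compartment boundary, was measured through 6 of 8 listed genes. Of these 6, 2 were lower at 0 h (8.24% of all features), 1 was lower at 12 h (2.97%) and 1 at 24 h (4.39%), and none was called at 48 h. Between 12 h and 0 h 3 rose (15.1%), and between 24 h and 0 h 2 rose and 2 fell (12.2% and 8.08%). With the block 0 were called at 0 h, 0 at 12 h, 1 at 24 h, 2 between 12 h and 0 h and 1 between 24 h and 0 h. The shares of all features called with it were 4.83%, 1.34%, 1.61%, 12.4% and 8.63% in these comparisons. The ligand hh was lower at 0 h (-0.17 ± 0.05, adjusted p = 0.0218, 0.0881 with the block), as was its receptor ptc (-0.13 ± 0.04, adjusted p = 0.0232, 0.0904 with the block). Between 12 h and 0 h hh rose by 0.28 ± 0.07 (adjusted p = 0.00727) and ptc by 0.22 ± 0.05 (adjusted p = 0.00458), both still called with the block. smo also rose, by 0.47 ± 0.16 (adjusted p = 0.0413), a call lost with the block (adjusted p = 0.0815). Between 24 h and 0 h cos fell by 0.13 ± 0.05 (adjusted p = 0.0400). That call was lost with the block (adjusted p = 0.155) and without replicates 3 and 6 (adjusted p = 0.134). When replicates 3 and 6 of 0 h and 12 h were left out, ptc read -0.06 at 0 h (adjusted p = 0.408) and its change at 12 h was 0.10 (adjusted p = 0.270), neither called. hh and smo then had too few values to be fitted. en, the selector of the posterior compartment that keeps dpp off there, was lower at 24 h (-0.49 ± 0.10, adjusted p = 0.00665, 0.0269 with the block) and had all 6 arrays below 0. inv, also on this list, was not lower at 24 h (0.09 ± 0.08, adjusted p = 0.495), with 5 of 6 arrays above 0. dpp itself was not called in any comparison in which genes of this list were.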

How the data were processed

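Two-colour arrays of wing disc RNA were compared at 4 times. Per the labels, total RNA was amplified in 2 rounds and labelled with Cy3 or Cy5. The authors deposited 1 log2 ratio per feature and array; the base, scanner, background correction and normalization were not found in the labels or the files. Of 12359 features, 169 were left out as likely controls, since their positions, repeated at a regular spacing, held no named gene. No label marks them as controls. Of the other features, 10289 named 1 gene and 1845 none. Each array was centred on its median (-0.01 to 0.008 before), features of a gene were averaged, and features with at least 4 of 6 values at each time were kept (10661, of which 8815 named genes; 1.58% of values were missing). Arrays had SD of 0.18 to 0.291, and their number limits the precision. limma 3.58.1 in R 4.3.3 fitted a mean per time and a dye coefficient over all 24 arrays, with arrays as independent, moderated tests, and Benjamini-Hochberg adjustment over all features; the fitting was tested on simulated data.

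Partner pairs were found by the highest correlation between arrays of opposite dye within a time, after the data were seen; the correlation within pairs in the fit was 0.443. Replicate numbers did not pair arrays across times: of 36 same-numbered pairs of arrays, 15 had deviations that correlated at over 0.1 (range -0.482 to 0.499). Named were all members and further pathway genes that passed (up to 4 with the lowest p in each comparison). Also named were the measured Hedgehog genes and the 3 genes most like the member with the lowest p for any change over time. Not every called change of a named gene is given. The tracheal markers, nub, NimC1 and eater were named after their values were seen. Members and lists were chosen with earlier results of these data known. No sequence was used, so motif and protein comparisons were not made. The alternatives tried were centring, quantile normalization, the minimum of values, the dye term, replicate and pair blocks, averaged pairs, only the arrays compared, robust variance, array weights, left-out arrays and pairs, and features kept apart. Fits with arrays or pairs left out treated the remaining arrays as independent.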

Additional observations from a re-analysis of the deposited data

Results flagged for a closer look

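The highest salm value at 48 h, 0.355 in replicate 4, stood farther from the next array than Dixon's 95% critical value of 0.625 of the range allows for 6 arrays. Such a value was the only one among 28 groups of 6 arrays (7 members at 4 times), and chance gives about 1 in 20 groups.

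The ratio of Med differed between 12 h and 0 h by -0.51 and between 24 h and 0 h by -0.49, by the test of the change itself, with all 6 arrays below 0 at 12 h and at 24 h and all 6 above 0 at 0 h. How many of all features separate in this way is not given here, and 23.8% and 20.3% of them were called for these changes. The ratio of tkv differed between 24 h and 0 h by 0.60, with 4 of 6 arrays above 0 at 24 h and 2 of 6 at 0 h. That call of tkv was lost with partner pairs as a block (adjusted p = 0.0898) and in 25 of 36 fits that left out 1 array or 1 pair, and the change was 0.27 without replicates 3 and 6 of 0 h. Both comparisons use the same 0 h arrays.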

How the results depend on the processing

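Direction and side of the threshold were kept by the members' ratios and changes except as given here, and uncalled values that changed sign within 1 SD of the arrays were counted as kept. The comparisons are those at 0, 12, 24 and 48 h, then 12 h, 24 h and 48 h against 0 h, then any change over time. The features called in these were 1287, 884, 868, 671, 2539, 2163, 675 and 2103. With partner pairs as a block they were 515, 143, 172, 204, 1322, 920, 14 and 743, and with partners averaged 0, 0, 0, 58, 343, 0, 0 and 0. At an unadjusted p under 0.05 the averaged partners gave 1724, 1490, 1435, 1253, 2662, 2332, 1464 and 1834. Array weights gave 3144 at 0 h, 3324 for 24 h against 0 h, 1876 for 48 h against 0 h and 3583 for any change. The arrays of the compared times alone gave 494, 53, 229 and 132 at the 4 times and 250 for 48 h against 0 h; no test of any change was made with them. Without replicates 3 and 6 of 0 h and 12 h, an alternative added after the data were seen, the counts were 277 at 0 h, 229 at 12 h, 478, 909 and 39 for 12, 24 and 48 h against 0 h, and 451 for any change.

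Leaving out 1 array or 1 pair in turn gave 202 to 1782 features at 0 h, 291 to 1051 at 12 h, 146 to 1044 at 24 h, 222 to 771 at 48 h, 1220 to 2968, 751 to 2643 and 32 to 1674 for 12, 24 and 48 h against 0 h, and 685 to 2527 for any change. The members called were then 0 at 0 h, 1 to 2 at 12 h, 0 to 2 at 24 h, 0 at 48 h, 1 to 2 for 12 h and for 24 h against 0 h, 0 to 1 for 48 h against 0 h and 1 to 2 for any change.

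Of the 7 members, quantile normalization called 2 at 12 h (put joined, -0.28) and 1 for 48 h against 0 h (Med, -0.34). Averaged partners called 0 in each comparison, with Med, sax and tkv at the same sizes. At 24 h the pair block called 1 member and the arrays of 24 h alone 0, where Med had an adjusted p of 0.0859 and sax of 0.114. Array weights called 2 for 12 h against 0 h (put joined, -0.28). Without replicates 3 and 6 of 0 h and 12 h, 0 members were called for any change (unadjusted p under 0.05 in 2), tkv was called at 24 h (0.37), and its uncalled change at 12 h was -0.23 in place of 0.34. For 24 h against 0 h, 1 member (Med) was called without centring, with quantile normalization, without a minimum of values, without the dye coefficient, with the replicate block, with the pair block, with the arrays compared alone and without those replicates, since tkv (0.60, or 0.50 after quantile normalization and 0.27 without those replicates) was then not called. The replicate block gave tkv an adjusted p of 0.0593 there and changed no other call of a member; the replicate numbers do not pair arrays, and the block was fitted in place of the dye coefficient. With the features of bi apart, its second feature read 0.09 at 0 h and -0.11 for 24 h against 0 h, both uncalled.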
